A study of Sus scrofa with 21 samples.

Results

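The cytosolic ribosomal protein genes were followed across 3 regions of the pig heart after myocardial infarction (MI). A gene was included when at least 1 of its probe sets lay above a log2 expression value of 3 in at least 10 of 21 arrays and the annotation of the array platform gave it a symbol of the RPL or RPS series, RPLP0, RPLP1, RPLP2 or RPSA. The kinases of the RPS6K series were left out. In all, 96 probe sets of 64 genes carry such a symbol, and 83 probe sets of 61 genes passed the level. RPL26, RPL30 and RPS15A did not, with 0 arrays above it. Each gene was represented by its probe set with the highest mean over the 21 arrays. The 61 genes were thus described among 12180 probe sets tested on the same arrays, which name 4977 genes in all. Sorted by symbol alone, 33 of the 61 were counted to the large subunit, 24 to the small subunit and 3 to the stalk of the large subunit. The 33 include RPL7L1, which is described below by its role in ribosome assembly. The remaining one, RPS19BP1, takes its symbol from a protein that binds RPS19 and is not a part of the ribosome, so that 60 genes were left without it.

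The cytosolic ribosome translates all mRNAs of the nucleus and is built from a large and a small subunit, each made of rRNA and of about equal molar amounts of its own set of proteins. Most ribosomal protein mRNAs begin with a terminal oligopyrimidine (TOP) tract, through which mTOR signalling and the protein LARP1 regulate their translation together, and they are among the most abundant mRNAs of any cell. A few members have close paralogues, such as RPL22 and RPL22L1 or RPL3 and the striated muscle form RPL3L.

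RNA came from female Landrace x Large White pigs, for which the study's methods give a weight and no age. The methods state these traits for the infarcted pigs. In 9 pigs a permanent double ligature was placed on the first marginal branch of the circumflex, and these pigs were killed at 1 week (pigs 7, 8 and 9), 4 weeks (pigs 18, 20 and 22) or 6 weeks (pigs 2, 3 and 5), given in the labels also as days 6, 30 and 45. Each gave 1 sample of infarct core (IC), the middle of the left ventricular scar, and 1 of remote myocardium (RM), the non-infarcted septum. Control myocardium (CM) came from pigs 30, 31 and 33, which the labels call sham-operated and the study's methods healthy. There were thus 7 groups of 3 arrays, and comparisons with CM at the 3 stages share the same 3 control arrays. Expression is given as deposited, as log2 values on the RMA scale. The level of one probe set was used against that of another to choose a probe set for a gene and to sort probe sets by brightness. It was also used for the 3′ minus 5′ differences of control probe sets.

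Markers of the tissue were checked first. Of 14 measured cardiomyocyte markers 9, 11 and 6 were lower in IC than in CM at 1, 4 and 6 weeks and 1, 0 and 0 higher, while 9 of 10 fibroblast markers and 6 of 6 macrophage markers rose at each stage. In RM 0 markers of these 3 lists were called at any stage, with fibroblast medians of 0.57, 0.19 and -0.15 and macrophage medians of 0.76, 0.48 and 0.17. Lymphocyte markers were not measured. In such bulk samples a change in the number of cells of a type cannot be told apart from a change in the RNA per cell. The 3′ minus 5′ difference of the EF1A control probe sets averaged 2.20 in CM and at least 1.96 in RM and IC at 1 and 6 weeks, but 1.21 in RM and 0.90 in IC at 4 weeks, so that the 4 week arrays of both regions stood apart. For actin it averaged 3.67 in CM, 2.97 in RM and 3.04 in IC at 4 weeks, and 4.36 in RM and 4.84 in IC at 6 weeks, where all arrays lay above those of CM. The same difference for GAPDH averaged 0.09 in CM, -0.02 to 0.31 in RM and 0.75 to 1.30 in IC, so that it moved with the infarct core, and its part in the results was not tested.

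Ribosomal protein genes were more often higher than lower in the infarct core. Against CM, 24, 29 and 22 of 61 genes rose at 1, 4 and 6 weeks. At no stage did a gene fall: the count was 0 of 61 (limma, Benjamini-Hochberg adjusted p under 0.05, and also 0 at an unadjusted p under 0.05). Of all probe sets tested, 26.0%, 25.3% and 21.0% rose at these stages, and 28.2%, 29.1% and 26.0% fell. The median log2 difference of the 61 genes was 0.22, 0.25 and 0.18, beside -0.06, -0.06 and -0.08 over all probe sets tested, and 56, 56 and 55 of the 61 differences were above 0. Most of these differences were small: a log2 difference of at least 1 was reached by 2 genes at each stage, RPL3 and RPL22L1. The share of all probe sets that reached it was not counted, so this count cannot be set against it. In all, 19 genes rose at all 3 stages, where 16.0% of all probe sets did, 5 at 2 stages, 8 at 1 stage and 29 at none. All 3 IC arrays lay above all 3 CM arrays for 47, 46 and 40 of the 61 genes, beside 30.2%, 28.3% and 24.4% of all probe sets, and all below for 0, 1 and 0 genes, beside 33.9%, 32.8% and 30.3%.

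The rise spanned both subunits. Of the 33 large subunit genes 12, 16 and 13 rose at 1, 4 and 6 weeks, with medians of 0.22, 0.25 and 0.18, and of the 24 small subunit genes 11, 13 and 9 rose, with medians of 0.25, 0.28 and 0.18. The size of the rise and the number of genes that passed the test depended on how the arrays were scaled to each other. The median of the 61 differences was 0.11, 0.18 and 0.14 with every array centred on its median, with 49, 53 and 51 above 0, and 0.45, 0.55 and 0.34 after cyclic loess, with 60, 61 and 59 above 0. Over all probe sets the median was -0.17, -0.13 and -0.13 with centred arrays. The number of genes called was 11, 22 and 15 with centred arrays and 50, 55 and 35 after cyclic loess. Under either scaling 0 genes fell. The share of all probe sets called was not counted for either scaling, so these counts cannot be set against it. The 10 genes that rose at all 3 stages under each of the 3 scalings were RPL3, RPL13, RPL15, RPL19, RPL22L1, RPL32, RPS18, RPS21, RPS27 and RPSA.

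**Figure D1:**
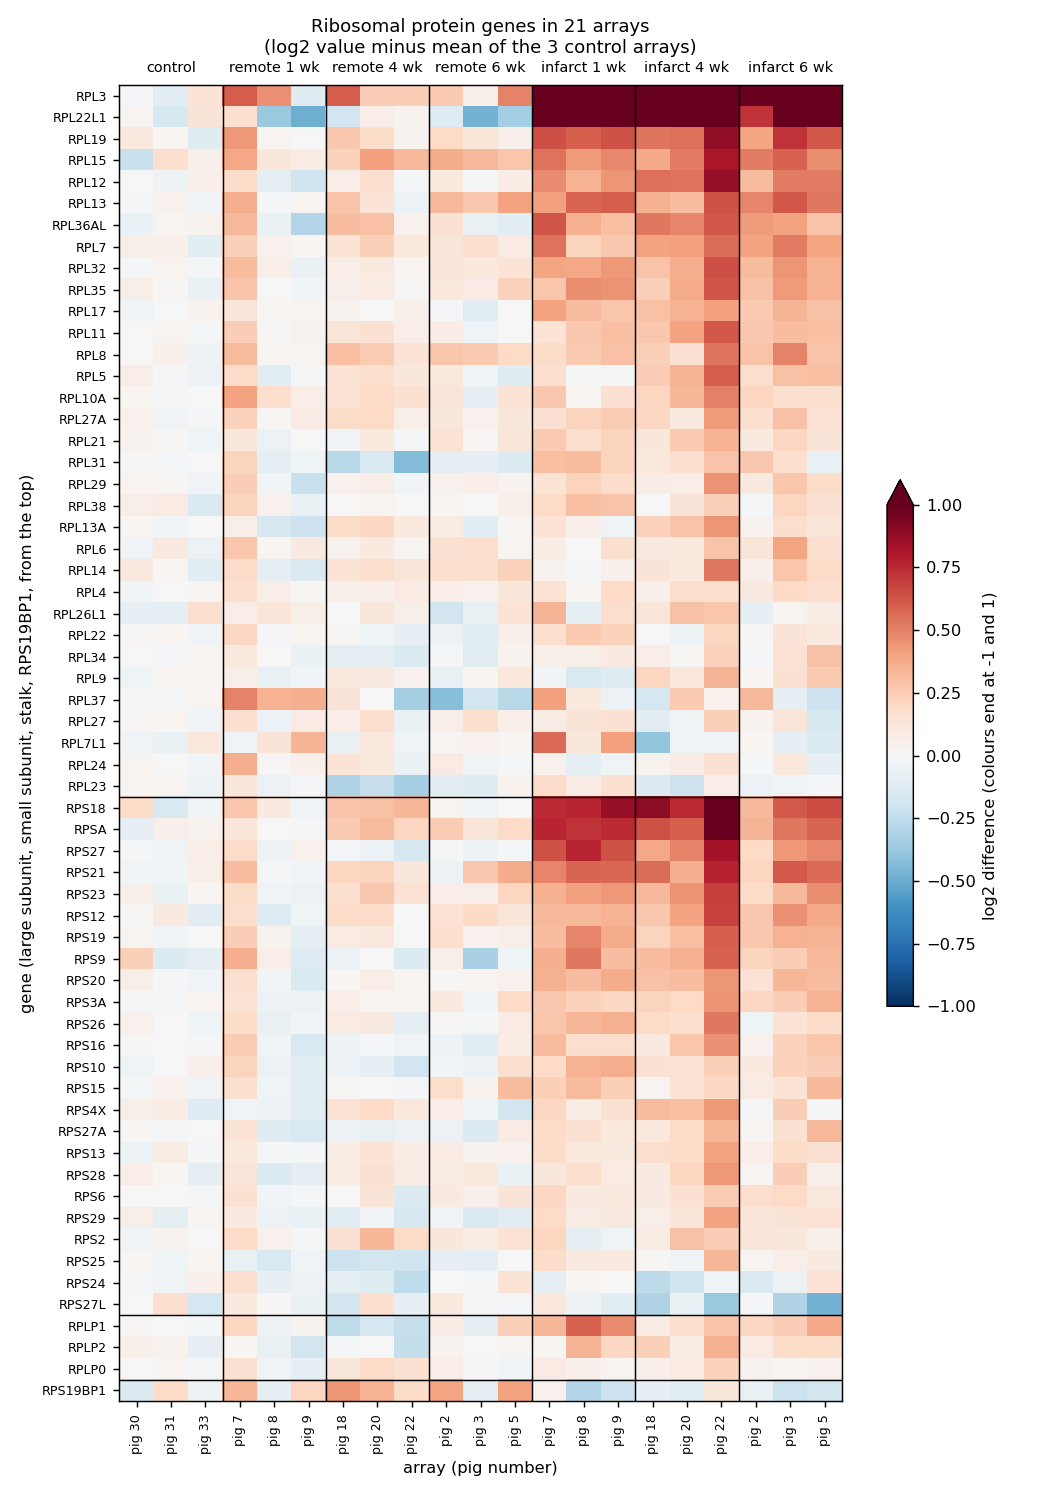
Log2 value minus the mean of the 3 CM arrays for 61 genes (vertical axis, large subunit, small subunit, stalk and RPS19BP1 from the top, each sorted by the mean IC difference) in 21 arrays (horizontal axis, grouped by region and stage). Red stands for values above and blue for values below the CM mean, with colours that end at a difference of 1. The 9 IC arrays are red for most genes, most strongly in the IC array of pig 22, while the RM arrays are pale except that of pig 7.

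Averaged over the 60 genes without RPS19BP1, the IC arrays lay 0.29 to 0.33 above the CM mean at 1 week, 0.23 to 0.49 at 4 weeks and 0.18 to 0.30 at 6 weeks on the log2 scale. The RM arrays lay between -0.04 and 0.20 at 1 week, -0.01 and 0.10 at 4 weeks and 0.01 and 0.07 at 6 weeks. The groups IC and RM did not overlap at any stage. The array of pig 22 was the highest in IC, and 19 genes in place of 29 passed the test at 4 weeks without it. At 6 weeks 11 genes in place of 22 passed without the IC array of pig 3, 13 without that of pig 5, 14 without the CM array of pig 31 and 13 without that of pig 33.

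RPL3 changed most. Its protein reaches the peptidyl transferase centre of the large subunit, and in adult striated muscle the paralogue RPL3L can take its place, which was not analysed here. The log2 values were 8.56, 8.46 and 8.72 in CM. In IC they were 10.62, 10.50 and 10.63 at 1 week, 10.61, 10.75 and 10.99 at 4 weeks and 10.20, 10.47 and 10.68 at 6 weeks. In RM they were 9.18, 9.04 and 8.46 at 1 week, 9.18, 8.82 and 8.83 at 4 weeks and 8.84, 8.63 and 9.07 at 6 weeks. All 9 IC arrays lay above every RM and CM array, by more than 1 log2 unit. The difference of IC from CM was 2.00 ± 0.18 (log2, SE; 4.00-fold; adjusted p = 1.16e-07) at 1 week. It was 2.20 ± 0.18 (4.61-fold; adjusted p = 3.69e-08) at 4 weeks and 1.87 ± 0.18 (3.65-fold; adjusted p = 5.71e-07) at 6 weeks. In RM the differences from CM were 0.27 to 0.36 and did not pass the test (adjusted p of 0.326 to 0.578).

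RPL22L1, the paralogue of RPL22, was the other gene above 1 log2 unit. Its values were 7.80, 7.62 and 7.91 in CM. In IC they were 9.40, 9.49 and 9.54 at 1 week, 8.97, 9.05 and 9.73 at 4 weeks and 8.50, 9.06 and 9.29 at 6 weeks. In RM they ranged from 7.28 to 7.94. The 9 IC arrays again lay above all RM and CM arrays, and the lowest of them, of pig 2, was at 6 weeks. The rise over CM was 1.70 ± 0.22 (3.25-fold; adjusted p = 4.26e-06), 1.48 ± 0.22 (adjusted p = 1.87e-05) and 1.17 ± 0.22 (adjusted p = 0.000326) at the 3 stages. RPL22 itself, an RNA-binding protein of the large subunit, gave 11.33, 11.34 and 11.29 in CM and 11.48, 11.58 and 11.55 in IC at 1 week. At 4 weeks it gave 11.32, 11.27 and 11.53, and at 6 weeks 11.33, 11.45 and 11.42. Its differences from CM of 0.22, 0.05 and 0.08 did not pass the test (adjusted p = 0.0919, 0.697 and 0.549), although the 3 arrays at 1 week lay above those of CM. The difference between the paralogues was not tested.

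**Figure D2:**
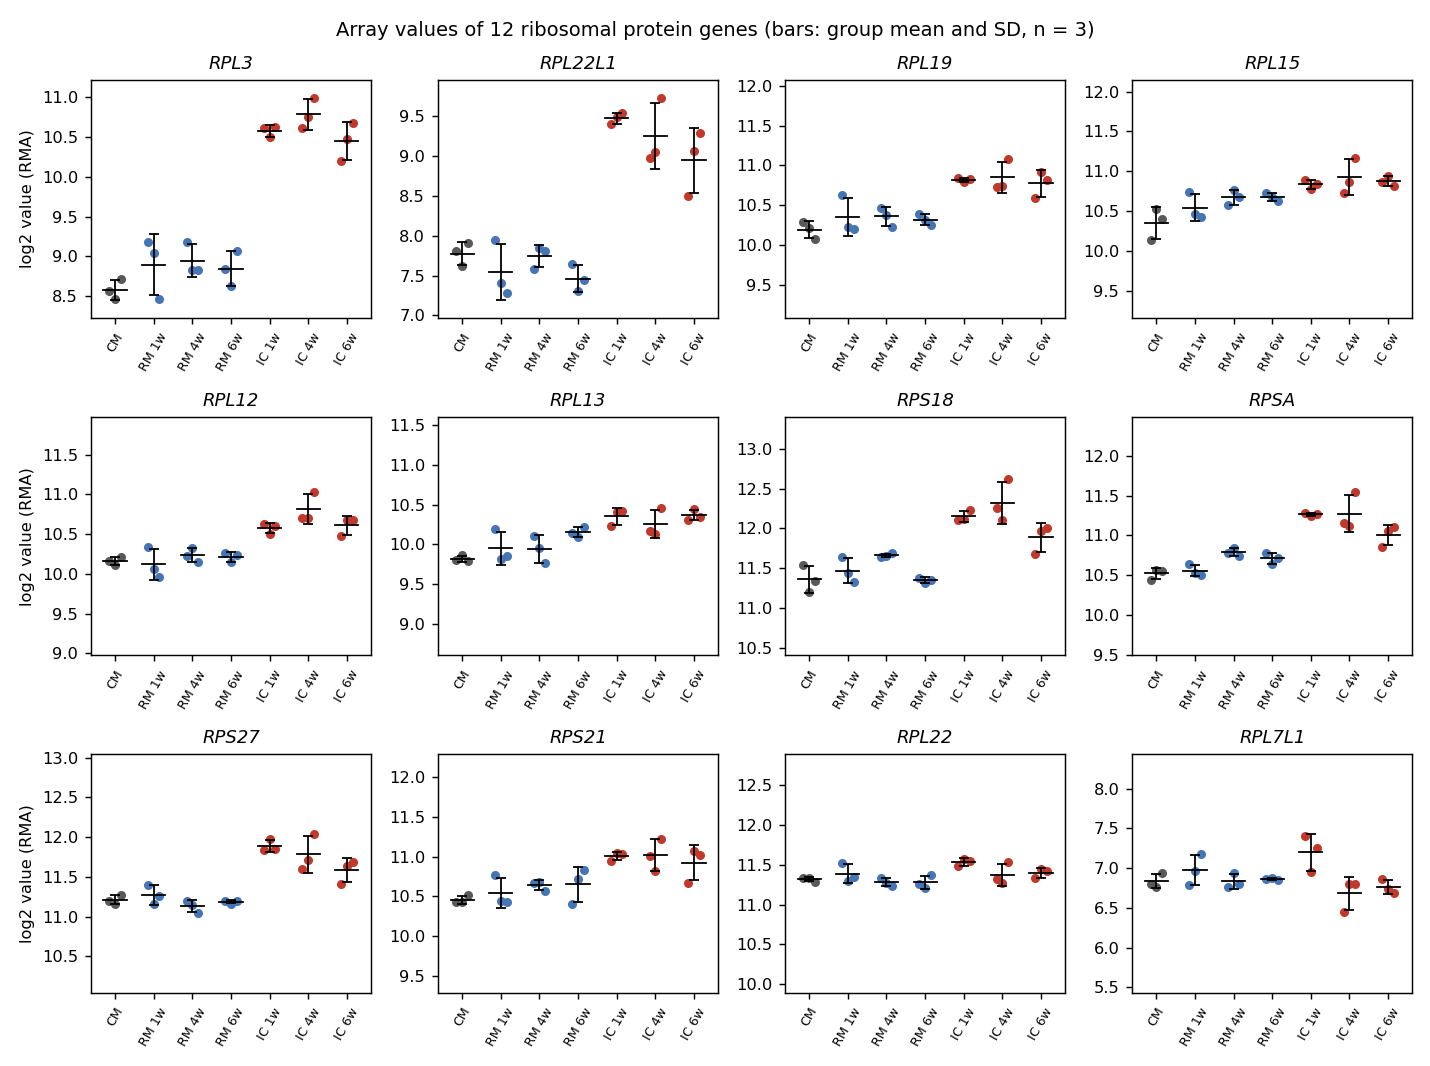
Log2 RMA values (vertical axis, a span of 3 log2 units in every panel) of 12 genes in CM, RM and IC at 1, 4 and 6 weeks (horizontal axis). Points are arrays, and bars give the group mean and SD (n = 3). For RPL3 and RPL22L1 the IC arrays are separate from all others, for the next 8 genes the IC arrays sit less far above CM, and RPL22 and RPL7L1 show little or a brief difference.

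Among the other large subunit genes, RPL19, RPL15, RPL12 and RPL13 had the largest differences as a mean over the 3 stages. RPL19 forms a bridge to the small subunit. It gave 10.29, 10.21 and 10.07 in CM, 10.84, 10.79 and 10.83 in IC at 1 week, 10.73, 10.74 and 11.08 at 4 weeks and 10.59, 10.91 and 10.81 at 6 weeks. No IC array overlapped with CM, and the differences were 0.63 ± 0.14, 0.66 ± 0.14 and 0.58 ± 0.14 (adjusted p = 0.000969, 0.000629 and 0.00244). RPL15, a core protein of the large subunit, gave 10.13, 10.52 and 10.40 in CM, and in IC 10.90, 10.78 and 10.84 at 1 week, 10.73, 10.87 and 11.17 at 4 weeks and 10.86, 10.94 and 10.82 at 6 weeks. Its IC arrays also lay above CM, where pig 30 was low, and its differences were 0.48, 0.57 and 0.52 (adjusted p = 0.00517, 0.00147 and 0.00395).

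RPL12 lies at the base of the stalk, where elongation factors bind. It gave 10.15, 10.11 and 10.21 in CM, and in IC 10.63, 10.50 and 10.60 at 1 week, 10.70, 10.70 and 11.03 at 4 weeks and 10.47, 10.68 and 10.67 at 6 weeks. Without overlap between IC and CM, it rose by 0.42 ± 0.12, 0.65 ± 0.12 and 0.45 ± 0.12 (adjusted p = 0.00833, 0.000238 and 0.00641). RPL13, a protein of the large subunit, gave 9.80, 9.87 and 9.80 in CM, and in IC 10.23, 10.40 and 10.43 at 1 week, 10.18, 10.13 and 10.46 at 4 weeks and 10.31, 10.44 and 10.35 at 6 weeks. Every IC array was above CM, and the differences were 0.53, 0.43 and 0.55 (adjusted p = 0.00221, 0.00899 and 0.00239).

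The remaining paralogues of the large subunit follow, with no test between the members of a pair. RPL7, which binds rRNA of the large subunit, rose by 0.35, 0.46 and 0.44 in IC at the 3 stages (adjusted p = 0.0154, 0.00239 and 0.004). Its relative RPL7L1, which is known from ribosome assembly in the nucleolus, gave 6.80, 6.77 and 6.94 in CM and 7.40, 6.95 and 7.25 in IC at 1 week. At 4 weeks it gave 6.44, 6.80 and 6.80, and at 6 weeks 6.86, 6.74 and 6.69. It was called higher at 1 week, by 0.36 (adjusted p = 0.0344), and at 4 and 6 weeks its differences of -0.15 and -0.07 did not pass the test. RPL36AL, a near copy of RPL36A, gave 9.25, 9.35 and 9.36 in CM, and in IC 9.95, 9.67 and 9.62 at 1 week, 9.85, 9.81 and 9.94 at 4 weeks and 9.74, 9.72 and 9.60 at 6 weeks. It rose without overlap by 0.43, 0.55 and 0.37 (adjusted p = 0.0191, 0.00406 and 0.0446). RPL26L1, the relative of RPL26, had differences of 0.14, 0.23 and 0.00 that did not pass the test (adjusted p of 0.136 to 0.98).

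In the small subunit RPS18 and RPSA led. RPS18 lies in the head of the subunit. It gave 11.54, 11.20 and 11.33 in CM, 12.11, 12.12 and 12.23 in IC at 1 week, 12.25, 12.10 and 12.62 at 4 weeks and 11.68, 11.97 and 12.01 at 6 weeks. All IC arrays were above CM, and the differences were 0.79 ± 0.14, 0.97 ± 0.14 and 0.53 ± 0.14 (1.73-, 1.95- and 1.44-fold; adjusted p = 0.000121, 1.51e-05 and 0.00494). Its 2 other probe sets rose too at all 3 stages, by 0.33 to 0.59. RPSA, known also as the laminin receptor, gave 10.44, 10.57 and 10.56 in CM, and in IC 11.28, 11.25 and 11.26 at 1 week, 11.16, 11.12 and 11.54 at 4 weeks and 10.86, 11.05 and 11.11 at 6 weeks. It rose without overlap by 0.74, 0.75 and 0.48 (adjusted p = 4.63e-05, 3.71e-05 and 0.00293).

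RPS27 is a zinc finger protein of the small subunit. It gave 11.19, 11.16 and 11.27 in CM, and in IC 11.84, 11.97 and 11.85 at 1 week, 11.60, 11.71 and 12.04 at 4 weeks and 11.41, 11.64 and 11.69 at 6 weeks. It rose without overlap by 0.68, 0.57 and 0.37 (adjusted p = 0.000164, 0.000767 and 0.0197). Its second probe set fell at 1 week, by 1.05, and the mean of both had a difference of -0.19 at that stage, so that the direction of RPS27 at 1 week rests on the choice of probe set. Its paralogue RPS27L, a target gene of p53, gave 8.69, 8.86 and 8.51 in CM, and in IC 8.79, 8.63 and 8.57 at 1 week, 8.38, 8.62 and 8.32 at 4 weeks and 8.68, 8.39 and 8.22 at 6 weeks. The groups overlapped at each stage, and the differences of -0.02, -0.25 and -0.26 did not pass the test (adjusted p = 0.91, 0.144 and 0.137). RPS21 gave 10.43, 10.43 and 10.52 in CM, and in IC 10.94, 11.04 and 11.03 at 1 week, 11.01, 10.82 and 11.22 at 4 weeks and 10.67, 11.07 and 11.02 at 6 weeks. It rose by 0.55, 0.56 and 0.47 (adjusted p = 0.00396, 0.00326 and 0.0138) with every IC array above CM. RPS4X, the X-linked form of RPS4, rose at 4 weeks only, by 0.35 (adjusted p = 0.0121), from 10.64, 10.65 and 10.45 in CM to 10.89, 10.88 and 11.02 in IC.

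Among the stalk genes, whose products recruit elongation factors, only RPLP1 was called, and only at 1 week. RPLP1 rose at 1 week by 0.46 (adjusted p = 0.00271), from 10.73, 10.72 and 10.71 in CM to 11.05, 11.31 and 11.19 in IC. Its later differences of 0.18 and 0.28 did not pass the test (adjusted p = 0.212 and 0.0589). RPLP0, which anchors the stalk, had differences of 0.05, 0.12 and 0.03, and RPLP2 of 0.19, 0.22 and 0.15, none past the test. RPS19BP1, no ribosomal protein, had differences of -0.15, -0.03 and -0.16.

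The other 9 genes that rose at all 3 stages were RPL7, RPL17, RPL32, RPL35, RPL36AL, RPS12, RPS19, RPS20 and RPS23, with differences between 0.26 and 0.55. RPL5 and RPL11, which hold the small rRNA of the large subunit and can bind MDM2, rose by 0.40 and 0.43 at 4 weeks (adjusted p = 0.00915 and 0.00293). RPL11 rose at 6 weeks too, by 0.29. The 29 genes called at no stage had differences between -0.26 for RPS27L and 0.28 for RPL31. RPS6, the substrate of the S6 kinases, was among them, with 0.13, 0.16 and 0.16, and RPS27A, which is made as a fusion with ubiquitin, with 0.15, 0.21 and 0.17.

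**Figure D3:**
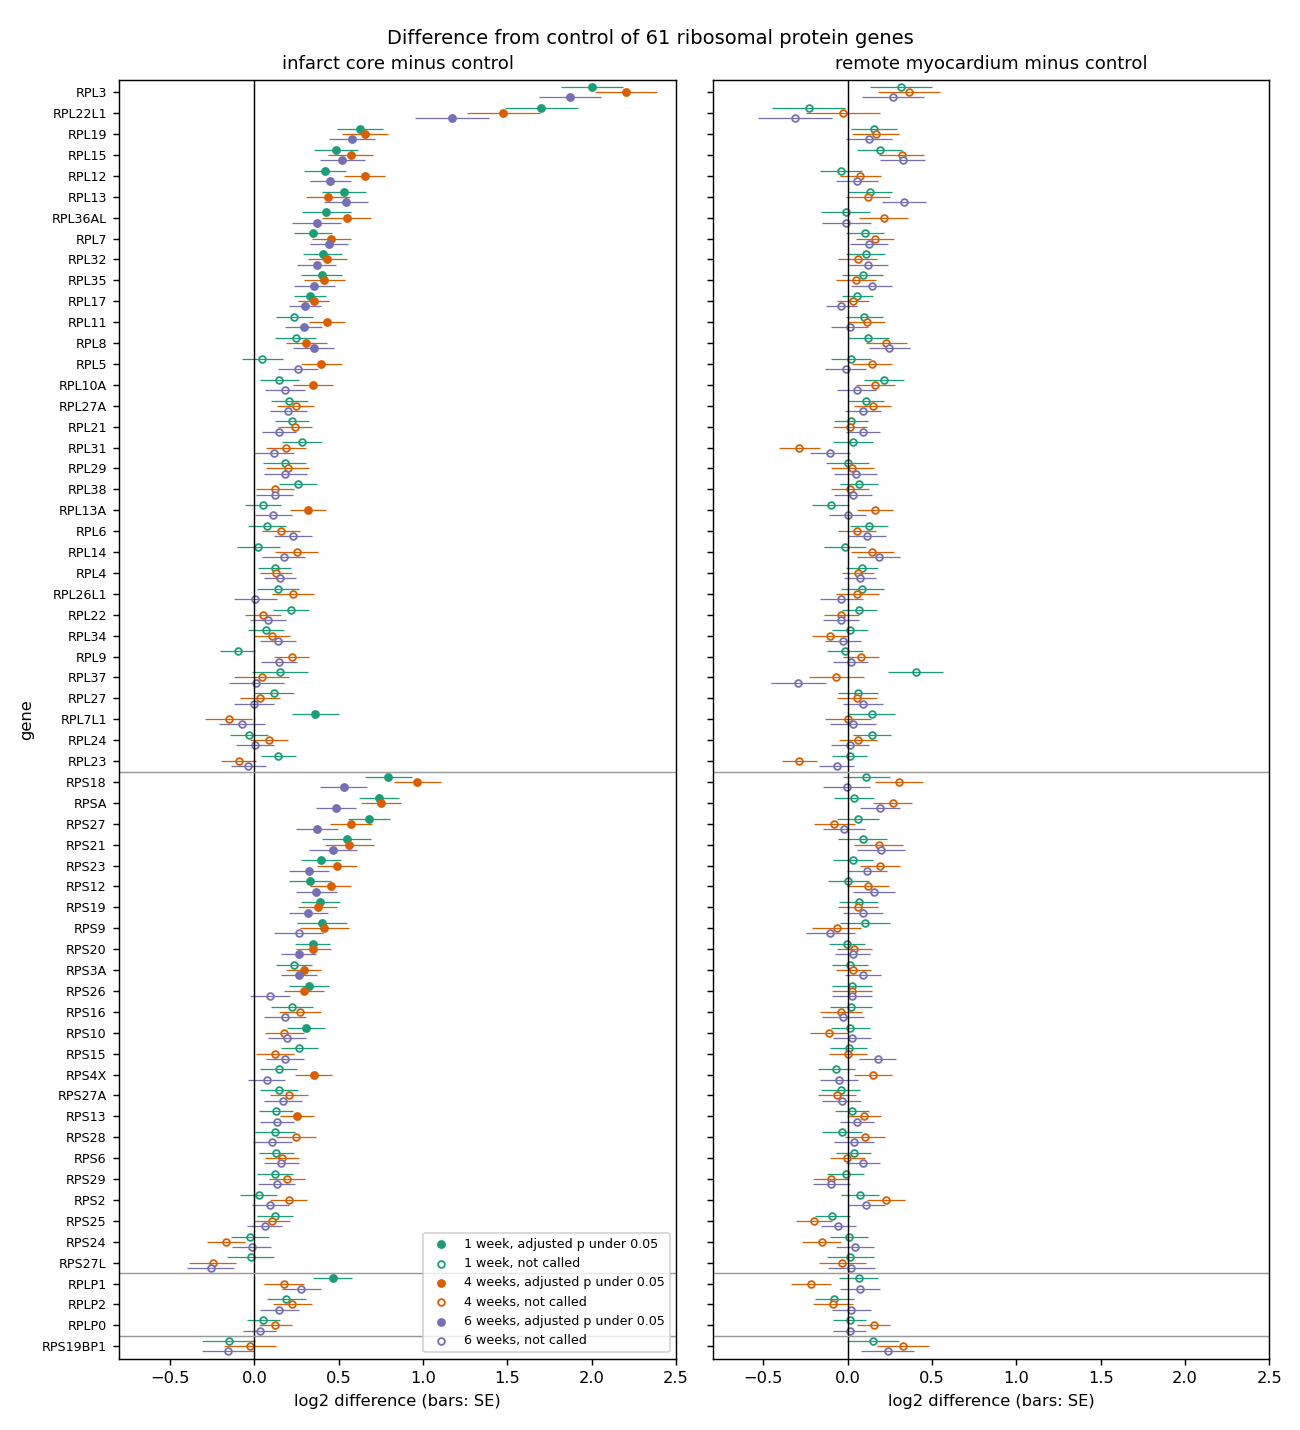
Log2 difference from CM (horizontal axis, bars give the SE) of 61 genes (vertical axis) in IC on the left and RM on the right, coloured by stage. Filled points passed the test at an adjusted p under 0.05. In IC most points lie right of 0 with RPL3 between 1.87 and 2.20, and in RM no point is filled.

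In the remote myocardium 0 of 61 genes were called against CM at any stage by limma, beside 1.13%, 1.08% and 0.197% of all probe sets at 1, 4 and 6 weeks. At an unadjusted p under 0.05 there were 1, 5 and 2 genes, and the share of all probe sets at that threshold was not counted. The smallest adjusted p was 0.262 for RPL37 at 1 week, 0.175 for RPL23 at 4 weeks and 0.296 for RPL13 at 6 weeks. With array weights 3 genes were called at 4 weeks, and with the probe set of the second highest mean 1 gene. Some of these second probe sets carry the name of another gene in the study's annotation, as given below. The medians were 0.04, 0.06 and 0.04, beside 0.02, 0.01 and -0.03 over all probe sets. At 1 week the median turned to -0.03 without the RM array of pig 7, with 21 in place of 47 of 61 differences above 0. All RM arrays lay above all CM arrays for 2, 21 and 16 genes at the 3 stages (12.0%, 14.9% and 9.10% of all probe sets) and below for 1, 9 and 2 genes (9.84%, 13.5% and 11.3%). Differences reached from -0.31 for RPL22L1 at 6 weeks to 0.40 for RPL37 at 1 week. The RM array of pig 7 stood highest, 0.20 above the CM mean over the 60 genes.

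Within pigs the infarct core was again higher. In a fit that pairs the IC and RM arrays of a pig, 12, 16 and 9 genes were higher in IC at 1, 4 and 6 weeks, beside 24.7%, 25.5% and 22.6% of all probe sets, so that the share of these genes was close to or below that of all probe sets. Lower were 0, 0 and 1 genes, beside 27.9%, 29.3% and 25.0%, and the called gene was RPS19BP1 at 6 weeks, at -0.39 ± 0.14 (adjusted p = 0.0416). These counts moved when a pig was left out, which leaves fewer pairs at its stage. Of the calls in either direction, 5 were left in place of 12 at 1 week without pig 8 or pig 9. Without pig 7 there were 17. At 4 weeks 9, 10 and 5 were left in place of 16 without pigs 18, 20 and 22, and at 6 weeks 5, 3 and 2 in place of 10 without pigs 2, 3 and 5. With every array centred on its median the counts were 6, 9 and 3 higher and 1, 1 and 2 lower. The direction was shared more widely than the calls: 34, 44 and 39 of 61 genes were higher in IC in all 3 pigs of a stage, as were 32.9%, 33.6% and 32.9% of all probe sets, and 4, 2 and 4 genes were lower in all 3 (39.3%, 38.3% and 38.2%). At every stage 7 genes were called higher (17.0% of all probe sets): RPL3, RPL22L1, RPS18, RPS27, RPL12, RPL19 and RPL36AL.

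RPL3 was higher in IC by 1.43, 1.46 and 2.17 in pigs 7, 8 and 9, by 1.43, 1.93 and 2.16 in pigs 18, 20 and 22, and by 1.36, 1.84 and 1.60 in pigs 2, 3 and 5. RPL22L1 was higher by 1.46, 2.09 and 2.25, by 1.39, 1.20 and 1.92, and by 0.85, 1.76 and 1.85 in the same pigs. All 9 pigs thus shared the direction for both genes, with the smallest differences of both at 6 weeks in pig 2. The paired fit gave 1.69 ± 0.19, 1.84 ± 0.19 and 1.60 ± 0.19 for RPL3 (adjusted p = 6.14e-05, 3.13e-05 and 0.000138). It gave 1.93 ± 0.23, 1.50 ± 0.23 and 1.49 ± 0.23 for RPL22L1 (adjusted p = 7.79e-05, 0.000324 and 0.000591). RPSA was higher at 1 and 4 weeks, by 0.71 and 0.49, and RPL31, RPS9 and RPL32 at 4 weeks only, by 0.47, 0.48 and 0.37. RPL15 and RPL13, which rose over CM at all stages, were not called against RM at any stage (adjusted p of 0.0589 to 0.297), where their differences were 0.20 to 0.40.

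Changes from stage to stage were few. In IC, 1 gene fell from 1 to 4 weeks (6.35% of all probe sets did) and 1 from 1 to 6 weeks (9.10%), in both cases RPL7L1, with differences of -0.52 ± 0.14 (adjusted p = 0.0231) and -0.44 ± 0.14 (adjusted p = 0.0399). Neither call held without the IC array of pig 7 or of pig 9 at 1 week, the first was also lost without that of pig 18, and the second without that of pig 2 or of pig 3. Between 4 and 6 weeks 0 genes were called (3.88% of all probe sets), 3 at an unadjusted p under 0.05, with RPS18 nearest at -0.44 ± 0.14 (adjusted p = 0.0856). RPL22L1 had a difference of -0.53 ± 0.22 between 6 weeks and 1 week that did not pass the test (adjusted p = 0.107). In RM 0 genes were called between any stages (1.59%, 0.181% and 0.632% of all probe sets for 4 against 1, 6 against 1 and 6 against 4 weeks), and 5, 1 and 3 at an unadjusted p under 0.05. The difference of IC and RM changed between stages for 0 genes (0.0657%, 0.320% and 0% of all probe sets), and for 0 at an unadjusted p under 0.05. Shares of all probe sets at an unadjusted p were not counted for these comparisons of stages.

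For 20 of the 61 genes the array carries more than 1 probe set past the level, 22 in all beside those described so far, and these did not all follow. Of the 22, 5, 9 and 4 were called higher in IC than in CM at the 3 stages and 8, 1 and 2 lower, with medians of -0.23, 0.32 and 0.01. For 3 genes another probe set was called against the direction of the called one. The second probe set of RPL35 fell by 1.12, 1.67 and 1.23 at the 3 stages where the first rose by 0.40, 0.41 and 0.35. That of RPS27 fell at 1 week as given above (adjusted p = 0.0339), and that of RPL32 fell by 0.43. The study's own annotation names the probe set of RPL35 MRPS18C, a mitochondrial ribosomal protein. That of RPS27A it names SLC39A10, a zinc transporter, which rose by 1.77, 0.94 and 0.79. Another probe set of RPL23 is named MEI1 there. In RM 1 of the 22 was called higher than in CM, at 4 weeks, where the largest difference of the 22 was 1.13. The study lists MEI1 as higher in RM at 4 weeks, so this call may belong to that probe set of RPL23. It may thus not stand for a ribosomal protein gene. RPL3 and RPL22L1 carry the same names in both annotations.

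A group of 8 dimmer probe sets belongs to the same sequence clusters as the brighter ones and differs from them in the letter A or S of its name. They stand for RPL6, RPS6, RPL13A, RPL17, RPL32, RPL23, RPL24 and RPL12, and were singled out after their values were seen, so that their pattern is a description. Against CM 5 of these 8 fell in IC at 1 week (median -0.47) and 4 rose at 4 weeks (median 0.48). From 1 to 4 weeks all 8 rose in IC, by 0.61 to 1.04 (median 0.88), beside 5.57% of all probe sets, and the brighter probe sets of the same genes had 0 calls of 8. Such pairs exist for 9 other clusters of the array, where 4 of 9 dimmer probe sets rose between these stages (median 0.21) and 0 of 9 brighter ones. In RM 0 of the 8 were called between these stages, with a median of 0.15. The 12 labelling control probe sets, which detect RNA added before labelling, differed in IC between 4 weeks and 1 week by 0.85 to 2.40, with 10 of 12 called higher, and their part in the pattern was not tested.

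**Figure D4:**
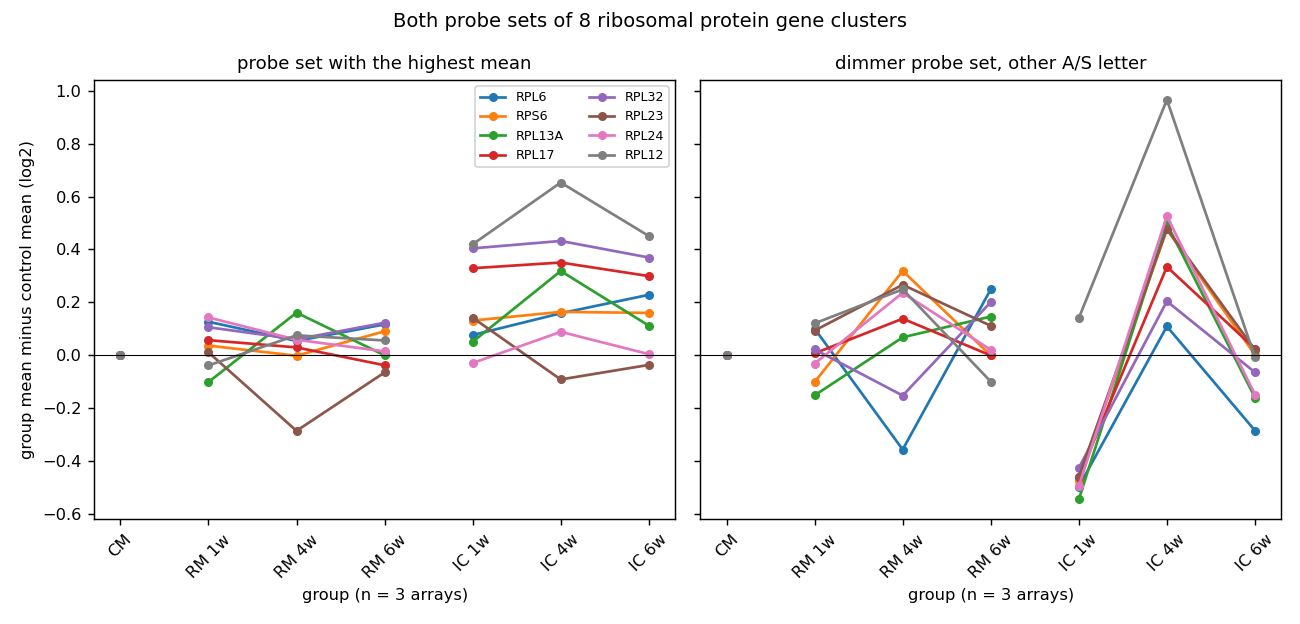
Group mean minus CM mean (vertical axis, log2) of the probe set with the highest mean (left) and of the dimmer probe set with the other letter (right) of 8 genes, in CM, RM and IC at 1, 4 and 6 weeks (horizontal axis, n = 3 arrays a group). On the right IC rises from 1 to 4 weeks for all 8 genes, by 0.61 to 1.04, and on the left the lines stay flatter.

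Other genes of translation were read from lists, beside the 26.0%, 25.3% and 21.0% of all probe sets that rose and the 28.2%, 29.1% and 26.0% that fell in IC. No difference between lists was tested. The 57 measured mitochondrial ribosomal protein genes, whose products translate the mRNAs of the mitochondrial genome, had 49, 54 and 50 genes that fell in IC at the 3 stages and 0 that rose, with medians of -0.91, -1.08 and -0.82. With centred arrays or after cyclic loess 47 to 56 fell and 0 rose. MRPL39 and MRPS35 fell by 1.59 and 1.50 at 1 week. In RM 0, 1 and 0 of these genes were called. The other probe sets with a mean of at least 10, the range in which 52 of the 61 ribosomal protein genes lie, numbered 213, of which 41, 49 and 37 rose and 88, 98 and 80 fell, with medians of -0.15, -0.32 and -0.14.

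Of 16 measured elongation factors and other genes with TOP mRNAs, 4, 9 and 5 rose in IC and 1, 1 and 0 fell, with medians of 0.18, 0.32 and 0.22. With centred arrays 4, 6 and 5 were higher and 4, 1 and 0 lower, with medians of 0.07, 0.25 and 0.18, and after cyclic loess 9, 12 and 8 were higher and 0 lower, with medians of 0.42, 0.62 and 0.39. VIM, the intermediate filament protein of mesenchymal cells, rose by 2.23, 2.71 and 2.46, and PABPC1, which binds poly(A) tails, by 1.36, 1.54 and 1.01. EEF1A1, which brings aminoacyl-tRNA to the ribosome and is measured by a control probe set of the array, rose by 1.50, 1.95 and 1.45. It was also called in RM at 4 weeks, at 0.94 (adjusted p = 0.00683), where the 3′ minus 5′ difference of its control probe sets was low. This is the probe set from the middle of the mRNA. The 3′ one rose in IC by 1.23, 1.32 and 1.15 and was not called in RM at 4 weeks, at 0.41 (adjusted p = 0.0861). EEF1B2, its exchange factor, rose by 0.64, 0.73 and 0.53. EIF3H fell at 1 week by 0.64.

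Of 31 initiation factors 6, 4 and 1 were higher and 8, 5 and 4 lower, and this balance turned with the scaling. With centred arrays 5, 2 and 0 were higher and 9, 7 and 7 lower, and after cyclic loess 8, 9 and 4 were higher and 4, 3 and 2 lower. EIF4A1, a helicase, rose by 0.96, 0.81 and 0.44, and EIF1B, a start codon factor, fell by 0.80, 0.89 and 0.77. Of 35 ribosome biogenesis factors 3, 1 and 1 rose and 5, 14 and 12 fell, with medians of -0.09, -0.32 and -0.24. With centred arrays 1, 0 and 0 were higher and 9, 18 and 16 lower, and after cyclic loess 3, 2 and 1 higher and 4, 11 and 10 lower. BYSL, which matures the small subunit, fell by 0.97, 0.86 and 0.76 and SBDS, which frees the large subunit for translation, by 0.87, 0.39 and 0.57, while NOP56, of the box C/D particle, rose by 0.64 at 1 week. Of 9 genes of RNA polymerase I, which makes rRNA, 4, 3 and 2 were lower and 0 higher, among them POLR2H, a subunit shared by the nuclear polymerases, at -0.64 at 1 week. With centred arrays 6, 4 and 2 of them were lower, and after cyclic loess 2, 2 and 0. Of 5 regulators of translation EIF2AK2, the kinase PKR, rose by 1.60, 2.15 and 1.43, and RHEB, which activates mTOR, fell at 1 week by 0.36. In RM 0 genes of the last 4 lists were called at any stage.

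**Figure D5:**
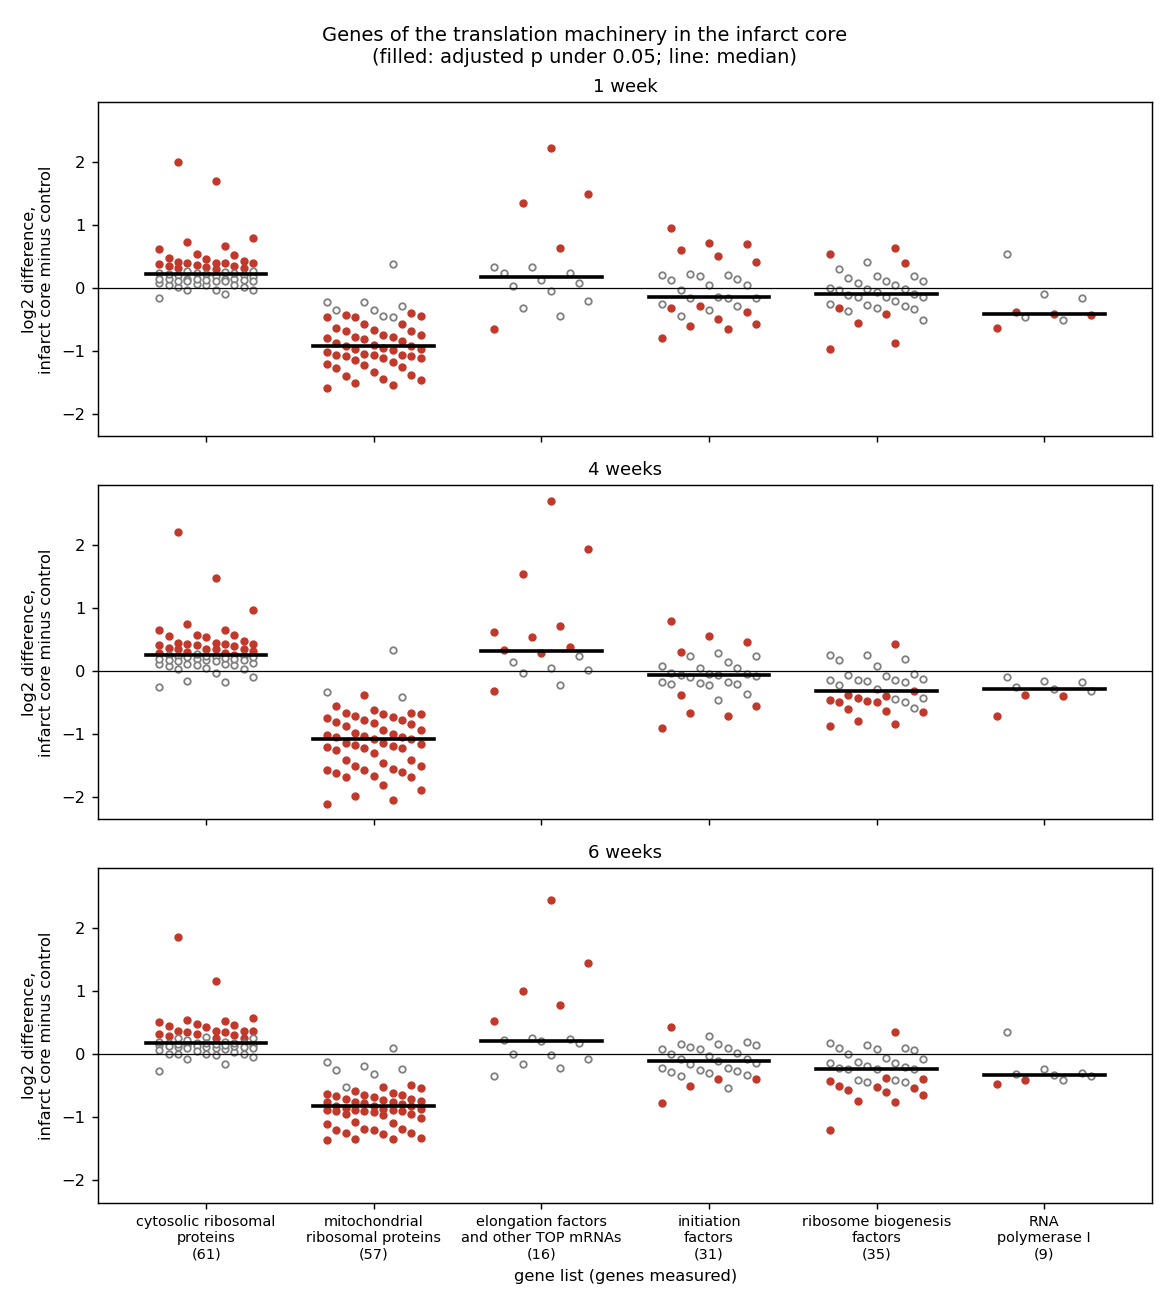
Log2 difference of IC from CM (vertical axis) for the genes of 6 lists (horizontal axis, with the number measured) at 1, 4 and 6 weeks from the top. Filled points passed the test at an adjusted p under 0.05, and lines give the list medians. Cytosolic ribosomal proteins lie mostly above 0, with medians of 0.22, 0.25 and 0.18, and mitochondrial ones mostly below, with medians of -0.91, -1.08 and -0.82.

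Markers of several cell types also differed between IC and CM, in directions that depended on the cell type. Averaged over its markers, the level in IC relative to CM was 2.46 to 2.65 for fibroblasts at 1 week, 2.90 to 3.07 at 4 weeks and 2.39 to 2.91 at 6 weeks. For cardiomyocytes it was -0.94 to -0.65, -1.38 to -0.78 and -0.67 to -0.26. FN1 and POSTN, matrix proteins of fibroblasts, rose by 4.64 and 4.60 at 1 week, and AIF1 and TYROBP of macrophages by 3.45 and 3.40. RYR2 and TCAP of cardiomyocytes fell by 1.91 and 1.73, while ACTC1 rose by 0.43. Of 6 smooth muscle and pericyte markers 4 rose and 1 fell at each stage, of 7 endothelial markers 2, 0 and 0 rose and 1, 1 and 2 fell, and both measured cycling markers, TOP2A and PCNA, rose at 1 week. How far these cells account for the difference in ribosomal protein mRNAs was not tested.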

How the data were processed

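Expression was measured on porcine Affymetrix arrays, 1 array per tissue sample. The deposited log2 values were made by the authors with RMA, which corrects the background, normalises the arrays to each other by quantiles and summarises the probes of each probe set, so that differences are relative to the other probe sets of an array. The table held 24123 probe sets with values of -0.06 to 13.40. The 12180 above 3 in at least 10 of 21 arrays were tested, of which the platform annotation gave 6257 one symbol, 133 several and 5790 none. Probe sets with several symbols were not used as members. The annotation can be old, and the gene identifiers of all 61 genes had the same symbol in RefSeq's gene table. For the study's tables of its own comparisons, only the symbols of 5 probe sets were used.

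All 21 arrays were fitted by group with limma 3.58.1 in R 4.3.3 (lmFit and eBayes), and IC was compared with RM in a second model of the 18 IC and RM arrays that had a fixed term for each pig. The pig numbers in the labels mark the same animal: between the IC and RM array of 1 pig the correlation of residuals was 0.0714 to 0.491 over 9 pigs, in 9 of 9 above those with the other pigs of their stage. P-values were adjusted by Benjamini-Hochberg over all probe sets tested within each comparison, with a threshold of 0.05. Errors of differences are SE of the fit. The precision is limited by the 3 arrays per group.

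The members and the gene lists were chosen with earlier results of these data known. Array values were given for the 10 genes with the largest mean absolute difference among those called in IC at all 3 stages, for genes called lower or between stages, and for genes with a paralogue. From the other lists, those with the largest changes at 1 week were named. Alternatives covered the filter, the scaling between arrays, the choice of probe set, the variance model, array weights and thresholds. They also covered the samples in the fit, the pig as a block and leaving out each array or, in the paired fit, each pig.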

Additional observations from a re-analysis of the deposited data

Results flagged for a closer look

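For 2 genes all 3 pigs of one stage and all 3 pigs of another differed in opposite directions between IC and RM. RPL37, a zinc-binding protein of the large subunit, had a mean difference of IC minus RM of -0.252 in the 3 pigs at 1 week and of 0.304 in the 3 pigs at 6 weeks. RPL9, another protein of the large subunit, had a mean of -0.0814 at 1 week, 0.142 at 4 weeks and 0.128 at 6 weeks. Both were picked out because of the opposite signs, and in this comparison of signs the difference was not tested. The share of all probe sets with such opposite signs was not counted, so the 2 genes cannot be set against it. In the fit of the change of IC minus RM between stages, 0 of 61 genes were called.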

How the results depend on the processing

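With 3 arrays a group, most counts moved with the processing, while those of RM against CM at 1 and 6 weeks, of RM at 6 against 4 weeks and of the change of IC minus RM were 0 under every alternative run. In IC against CM, the 24, 29 and 22 genes at 1, 4 and 6 weeks became 11 at 1 week with arrays centred on their median, 50, 55 and 35 after cyclic loess, 9 at 6 weeks at an adjusted p under 0.01, 2 at each stage with an absolute log2 difference of at least 1, and 16 at 4 weeks and 10 at 6 weeks in separate fits. In RM against CM the 0 genes at 4 weeks became 1 with the probe set of the second highest mean and 3 with array weights. The former may be the probe set of RPL23 that the study names MEI1. In IC against RM, the 12, 16 and 10 genes became 7, 10 and 5 with centred arrays, 40, 51 and 22 after cyclic loess, 19 and 26 at 1 and 4 weeks with a mean-variance trend, 32 and 23 at 1 and 6 weeks with array weights, 5, 5 and 2 at an adjusted p under 0.01, and 2, 2 and 2 with a log2 difference of at least 1.

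Between stages in IC, the 1 gene at 4 against 1 week became 2 with no filter or with one above 5, 3 with centred arrays, cyclic loess or the trend, 6 with the mean of all probe sets or array weights, 11 with the second probe set, and 0 at the stricter p or the log2 threshold. The 1 gene at 6 against 1 week became 0 with centred arrays, at the stricter p and at the log2 threshold, 2 with the mean of all probe sets, 4 with the second probe set and 3 with array weights. The 0 genes at 6 against 4 weeks became 2 after cyclic loess, with the mean of all probe sets and with the second probe set. In RM, 4 against 1 week became 1 with the second probe set and 3 with array weights, and 6 against 1 week 1 with array weights. The causes were not tested, and shares of all probe sets were not counted under the alternatives.

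With 1 array left out, IC against CM gave 20 to 20 genes at 1 week, 19 (without pig 22) to 32 at 4 weeks and 11 (without pig 3) to 20 at 6 weeks. RM against CM and the stages of RM gave 0 to 0. The stages of IC gave 0 to 2, 0 to 1 and 0 to 1 for 4 against 1, 6 against 1 and 6 against 4 weeks. In the paired fit 1 pig was left out with both its arrays. There IC against RM gave 5 (without pig 8 or 9) to 17, 5 (without pig 22) to 10 and 2 (without pig 5) to 5. The change of IC minus RM gave 0 to 0 in the same way.

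With the pig as a random replicate block, 24, 28 and 22 genes were called in IC against CM and 0 in RM. Without the block, IC against RM gave 16, 21 and 8. The block changed no other call count by over 1.5 times. Without the 4 week arrays, an alternative chosen after seeing the data, IC against CM gave 23 at 1 week and 19 at 6 weeks. Of 560 values of the 10 named genes under the alternatives, 516 kept their direction and side of the threshold, 41 kept the direction but missed it, and 3 turned: RPS27 at 1 week, to -0.19 with the mean of all probe sets and -1.05 with the second probe set, and RPL12 at 6 weeks, to -0.0082 with the second probe set. Genes with 1 probe set kept it in the alternatives on the choice of probe set. Of the 10 named genes, only RPS18, RPS27 and RPL12 have more, so the differences of the others could not move there.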
